A study of Mus musculus with 23 samples.

Results

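A set of 10 genes whose transcripts mark the subfields of the hippocampus were followed in hippocampal RNA of 23 mice. They were picked by gene symbol as known landmarks of the subfields, and all 10 were found among the 19733 genes of the deposited table. Wfs1, Fibcd1 and Mpped1 stand for the pyramidal cells of field CA1, Rgs14, Amigo2 and Pcp4 for CA2, Bok for CA3, and Prox1, Dsp and C1ql2 for the granule cells of the dentate gyrus. All 10 passed the filter on low values, which kept 15985 genes whose mean over all mice reached 0.1 FPKM, a count of sequenced fragments divided by transcript length and by the fragments mapped in the library.

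The mice were wild-type C57BL/6J males acquired at 6 weeks of age, and each library came from the hippocampus of 1 mouse. The 9 Ctrl mice drank a control liquid diet and the 7 EtOH mice an ethanol liquid diet, both with daily gavage of the vehicle CMC-Na. The 7 EtOH-UA mice drank the ethanol diet and were gavaged with urolithin A (UA), a compound that gut bacteria make from ellagitannins of fruits and nuts, at 200 mg/kg/day in the same vehicle. Tissue was taken after 16 weeks of treatment and 1 week of behavioral tests, and no EtOH-UA counterpart on the control diet was analysed here. Mice are lettered within each group in the order of the deposited columns, and the letters pair no mice between groups.

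The hippocampus is a chain of fields, each with its own type of principal neuron. Granule cells of the dentate gyrus send mossy fibers to the pyramidal cells of CA3, which project to CA1, and CA2 is a narrow field between CA3 and CA1 with a role in social memory. Each field expresses genes that the other fields express little, so such genes serve as landmarks in sections of the mouse brain. In a dissected piece of tissue the level of such a gene depends on how much of the field the piece holds and on how much RNA each cell makes. Fewer cells of a type and less RNA per cell cannot be told apart in these bulk libraries.

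Every library held transcripts of subfield genes: Prox1, the homeodomain factor of granule cells, ranged from 5.66 to 23.2 FPKM and Mpped1 from 32.2 to 86.9 FPKM. These values alone do not verify the tissue, since genes listed for other regions were present in every library too. Lamp5 of a neocortex list was at 13.3 FPKM or more, and Prkcd of a thalamus and habenula list at 4.66 FPKM or more. Steps between low values were read in 45 genes that have a single annotated transcript, and put 1 FPKM at 16.5 fragments for each kilobase of transcript (quartiles 15.5 and 17.0). Depth was taken as 1 value for all libraries, and the longest coding transcript was used for each gene. The means of the 10 genes then correspond to between 441 fragments for Amigo2 and 3449 for Mpped1. The lowest single value, Dsp in Ctrl mouse b, corresponds to 181 fragments. Shorter transcripts, such as that of 361 bases for Mpped1, would give fewer fragments and larger counting errors. Counting error at the mean was between 0.025 and 0.069 on the log2 scale, below the spread between mice of a group for each of the 10 genes. Such an estimate covers counting error only.

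A total of 3 mice stood apart in these genes. EtOH-UA mouse b had the highest summed FPKM of all mice (404609, against 327896 to 379518 in the other 22), the lowest Fibcd1, Mpped1 and Rgs14, and the highest Wfs1, Pcp4, Bok and C1ql2. In the same mouse 4 of 6 further CA1 genes and 3 of 4 inhibitory neuron genes were at their lowest of all mice. At their highest were 4 of 10 further dentate gyrus, 2 of 5 mossy cell, 3 of 7 choroid plexus and 5 of 5 blood genes. Ctrl mouse b had the lowest value of all mice in each of the 3 dentate gyrus members and in 9 of 10 further dentate gyrus genes, and the highest Fibcd1 and Rgs14. EtOH-UA mouse d had the lowest Prox1 and Dsp after Ctrl mouse b and the highest Mpped1. It had 3 of 7 choroid plexus genes at their lowest of all mice and 3 of 4 inhibitory neuron genes at their highest. The part of choroid plexus and blood in the values below was not tested, except where a choroid plexus covariate is given. Summed levels of 7 general neuronal genes, among them Snap25 and Rbfox3, lay between 2510 and 3060 FPKM over all 23 mice.

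**Figure D1:**
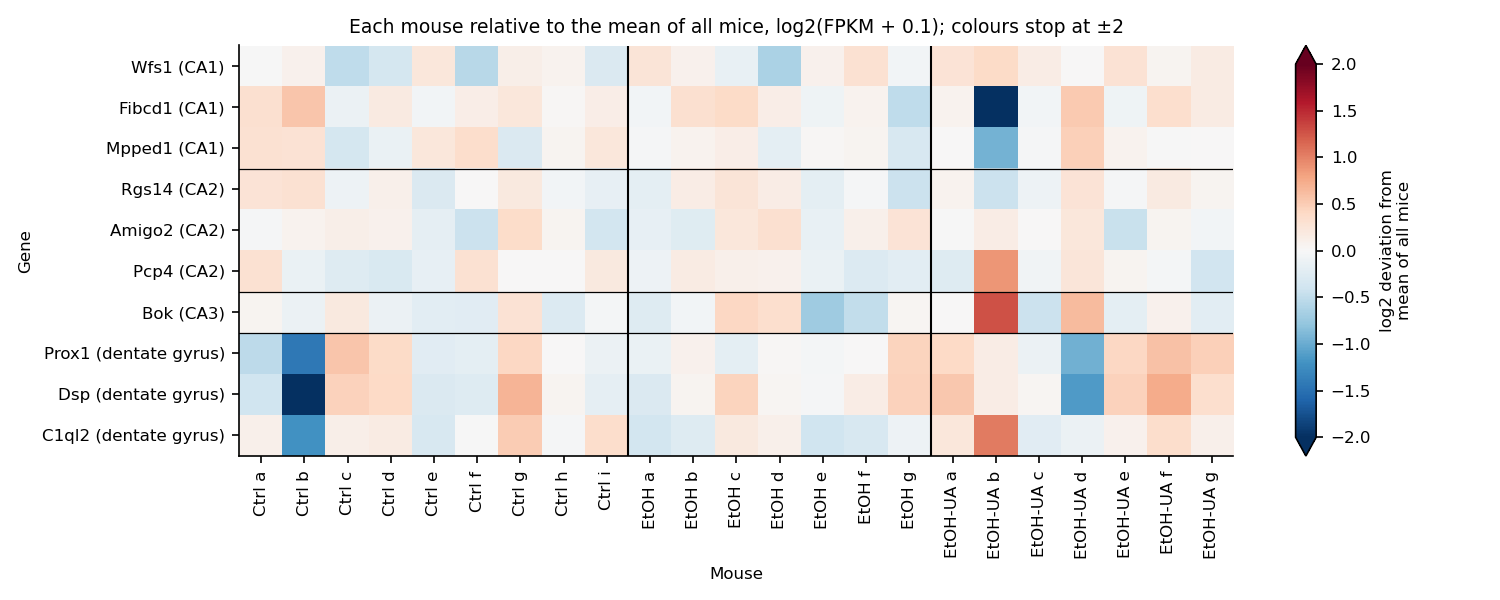
Each row is 1 subfield gene and each column 1 mouse, and colour gives the log2 deviation of log2(FPKM + 0.1) from the mean of all 23 mice, with colours ending at 2 in both directions. The darkest cells are Fibcd1 in EtOH-UA mouse b (-2.64) and Dsp in Ctrl mouse b (-2.42).

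Since FPKM are scaled by transcript length, levels can be compared between genes. Pcp4 had the highest level (144 ± 31.9 FPKM, SD, n = 23), above Mpped1 (63.6 ± 11.8 FPKM) in 23 of 23 mice. Bok followed at 41.4 ± 14.6 FPKM, below Mpped1 in 22 mice and above C1ql2 in 22. The next levels, C1ql2 (31.6 ± 9.30 FPKM), Rgs14 (30.5 ± 4.44 FPKM) and Wfs1 (30.1 ± 5.49 FPKM), could not be put in an order: C1ql2 was above Rgs14 in 11 of 23 mice and Rgs14 above Wfs1 in 12. Fibcd1 had 24.6 ± 6.14 FPKM and was below Wfs1 in 15 mice. Prox1 (16.3 ± 4.63 FPKM), Amigo2 (8.90 ± 1.38 FPKM) and Dsp (7.09 ± 2.34 FPKM) were lowest, with Amigo2 above Dsp in 20 mice.

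Wfs1 encodes wolframin, a glycoprotein of the endoplasmic reticulum whose loss causes Wolfram syndrome (Entrez Gene 22393, GRCm38 chr5:36966104-36988982). Ctrl mice spanned 20.1 to 34.7 FPKM around a median of 29.3, EtOH mice 19.0 to 36.4 around 31.3, and EtOH-UA mice 29.9 to 38.6 around 33.2. All 7 EtOH-UA mice were above the Ctrl median, but the groups overlapped, because 4 Ctrl mice were above the lowest EtOH-UA mouse. Wfs1 was the most even gene of the set within the EtOH-UA group, with a coefficient of variation of 9.29%.

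Fibcd1 encodes a membrane receptor that binds acetylated groups such as those of chitin (Entrez Gene 98970, chr2:31813290-31846964). Its levels spanned 21.4 to 34.3 FPKM around a median of 25.5 in the Ctrl group, 16.2 to 30.3 around 24.4 in the EtOH group, and 3.62 to 33.4 around 24.4 in the EtOH-UA group. The low end of the EtOH-UA group was mouse b, and the next lowest EtOH-UA mouse had 21.9 FPKM. The 3 medians were close, and each group spanned the medians of the other two.

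Mpped1 encodes a metallophosphoesterase-domain protein (Entrez Gene 223726, chr15:83779472-83858487). The Ctrl group spanned 49.2 to 79.8 FPKM around a median of 73.2, the EtOH group 49.9 to 68.2 around 63.7, and the EtOH-UA group 32.2 to 86.9 around 62.7. None of the 7 EtOH mice and 1 of the 7 EtOH-UA mice was above the Ctrl median, while 4 Ctrl mice were below the highest EtOH mouse, so that the groups overlapped. The 5 EtOH-UA mice other than b and d fell in a narrow band from 61.7 to 65.3 FPKM.

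**Figure D2:**
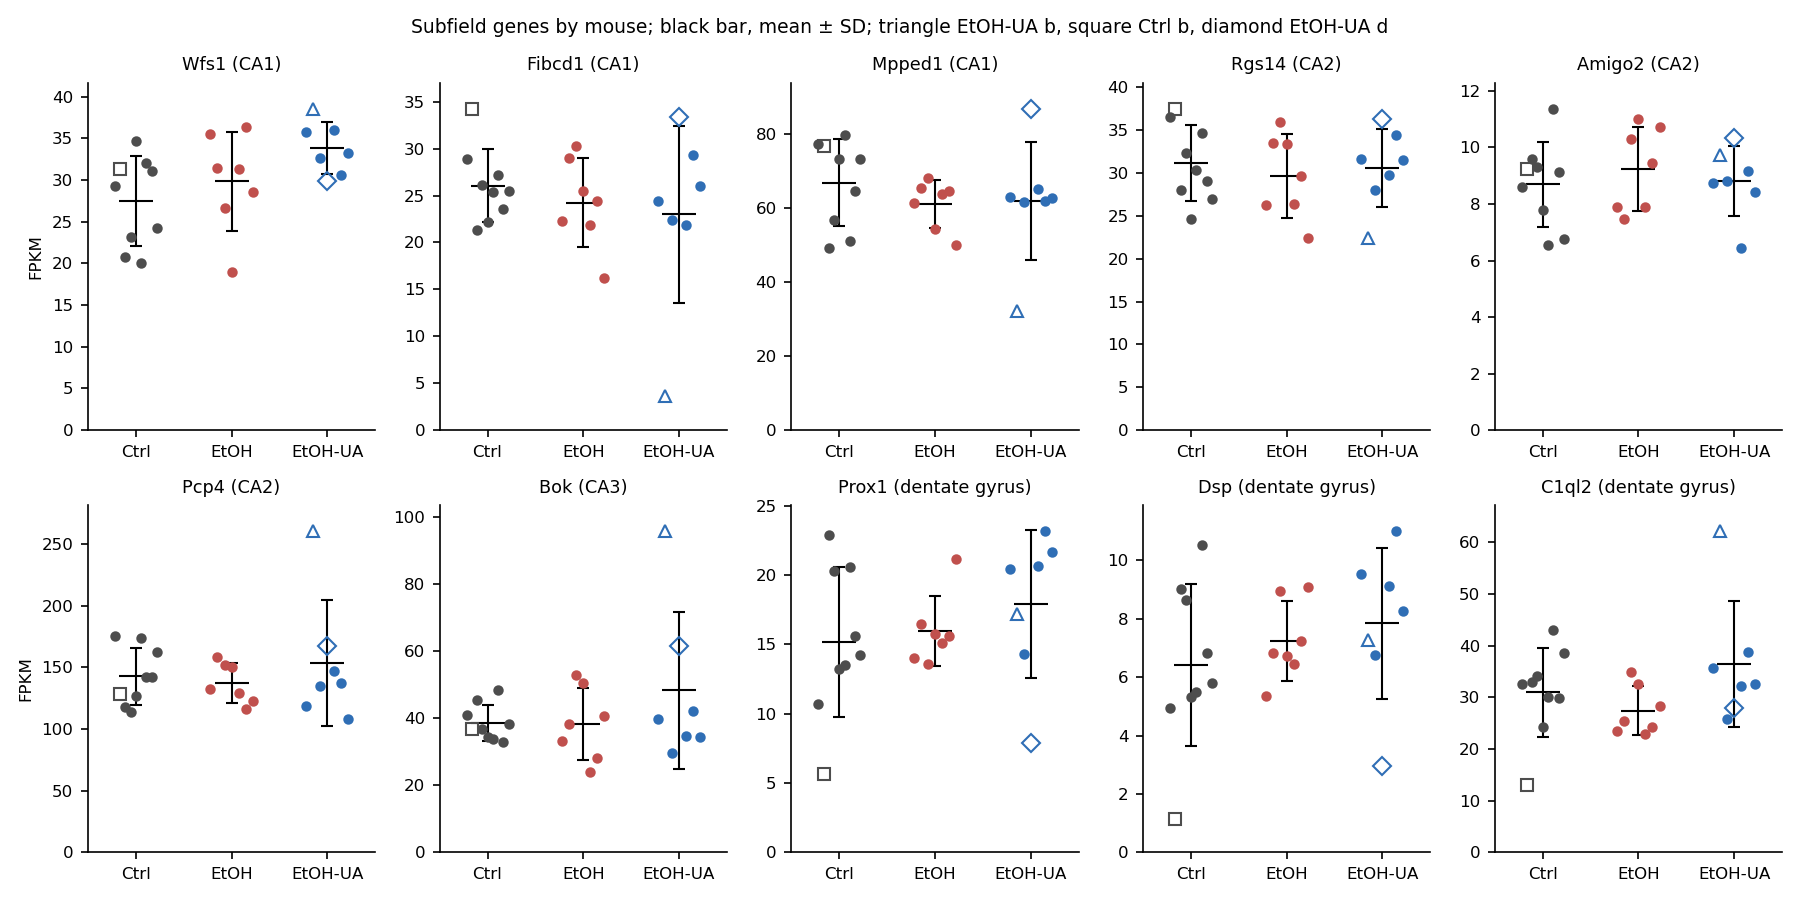
FPKM of the 10 subfield genes (vertical axes, starting at 0) in each mouse of the 3 groups, with the mean and SD as a black bar; the triangle is EtOH-UA mouse b, the square Ctrl mouse b and the diamond EtOH-UA mouse d. The 3 groups overlap in all 10 genes, with EtOH-UA mouse b far below its group in Fibcd1 (3.62 FPKM) and Ctrl mouse b lowest in Prox1, Dsp and C1ql2.

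Among the CA2 members, Rgs14 encodes a scaffold of G protein and ERK signaling that restrains plasticity of CA2 synapses (Entrez Gene 51791, chr13:55369732-55384687). Its Ctrl values spanned 24.7 to 37.5 FPKM around a median of 30.4, the EtOH values 22.4 to 35.9 around 29.6, and the EtOH-UA values 22.4 to 36.4 around 31.5. Amigo2, a leucine-rich repeat protein of cell adhesion (Entrez Gene 105827, chr15:97244074-97247287), spanned 6.54 to 11.4 FPKM around a median of 9.12 in Ctrl, 7.46 to 11.0 around 9.46 in EtOH and 6.43 to 10.3 around 8.82 in EtOH-UA mice. The ranges of both genes almost coincided in the 3 groups. Pcp4 encodes a small calmodulin-binding protein (Entrez Gene 18546, chr16:96467606-96525793) and is not restricted to CA2 in the brain. Pcp4 spanned 114 to 176 FPKM around a median of 142 in Ctrl, 117 to 159 around 133 in EtOH and 108 to 261 around 137 in EtOH-UA mice. The EtOH-UA group held both the lowest and the highest mouse, and the highest was mouse b, with the next at 167 FPKM.

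Bok, a member of the BCL2 family of cell death regulators, stood for CA3 (Entrez Gene 51800, chr1:93685575-93695770). Bok spanned 32.9 to 48.4 FPKM around a median of 36.8 in Ctrl, 24.1 to 52.9 around 38.3 in EtOH and 29.6 to 95.8 around 39.7 in EtOH-UA mice. The higher EtOH-UA mean (48.3 ± 23.3 FPKM, SD, n = 7, against 38.6 ± 5.34, n = 9, in Ctrl mice) was carried by mice b (95.8) and d (61.5), which were above every other mouse of the study.

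The dentate gyrus members are Prox1, which sets and keeps granule cell identity (Entrez Gene 19130, chr1:190118035-190170827), Dsp, which encodes the desmosomal plaque protein desmoplakin (Entrez Gene 109620, chr13:38151294-38198577), and C1ql2, a secreted C1q-like protein of mossy fiber synapses (Entrez Gene 226359, chr1:120340582-120343174). Each of them followed the other genes of the field over all 23 mice, Prox1 only weakly so within the EtOH group (r = 0.20). The 250 bases before the transcription starts of these 3 genes are therefore shown, 5′ to 3′ on the strand of the gene, from RefSeq promoters on GRCm38.p6. Capitals mark the GC box GGGCGG, the E-box CAGATG and the TATA box letters TATAAA, searched on both strands. Prox1 lies at chr1:190170828-190171077 on the minus strand, Dsp at chr13:38151044-38151293 and C1ql2 at chr1:120340332-120340581, both on the plus strand.
Prox1: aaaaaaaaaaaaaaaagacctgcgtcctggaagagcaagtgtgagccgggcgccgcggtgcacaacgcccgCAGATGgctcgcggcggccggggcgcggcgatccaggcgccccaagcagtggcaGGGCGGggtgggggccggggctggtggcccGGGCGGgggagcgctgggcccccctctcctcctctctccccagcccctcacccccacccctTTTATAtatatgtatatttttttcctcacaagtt
Dsp: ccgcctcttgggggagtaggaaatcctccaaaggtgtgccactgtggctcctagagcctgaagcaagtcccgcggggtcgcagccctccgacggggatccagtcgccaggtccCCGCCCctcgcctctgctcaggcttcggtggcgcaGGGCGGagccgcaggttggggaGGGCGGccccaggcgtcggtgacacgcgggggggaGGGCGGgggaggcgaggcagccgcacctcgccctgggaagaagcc
C1ql2: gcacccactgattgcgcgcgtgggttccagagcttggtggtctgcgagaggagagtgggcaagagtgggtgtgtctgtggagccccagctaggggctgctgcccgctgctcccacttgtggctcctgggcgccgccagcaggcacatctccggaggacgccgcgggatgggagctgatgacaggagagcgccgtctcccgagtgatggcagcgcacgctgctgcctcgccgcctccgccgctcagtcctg
The window of Prox1 held the E-box at -179, the GC box at -125 and -95, and TATAAA at -34, as the distance of the first base of the match from the start site. The window of Dsp held the GC box at -137, -102, -80 and -45, with no overlap between matches, and that of C1ql2 held none of the 3. Of the first listed windows of 27025 genes, 32.9% held the GC box, 14.5% the E-box and 13.0% the TATA box letters. GC content was 64.8% for Prox1, 72.4% for Dsp and 68.8% for C1ql2, against a median of 52.0% over all windows. These matches are a description of letters. Of the other members, Rgs14 had no listed window, and Wfs1 was the other one of the 9 with a listed window that held the E-box.

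Prox1 spanned 5.66 to 22.9 FPKM around a median of 14.2 in Ctrl, 13.6 to 21.2 around 15.6 in EtOH and 7.88 to 23.2 around 20.5 in EtOH-UA mice. Dsp spanned 1.14 to 10.5 FPKM around a median of 5.79 in Ctrl, 5.35 to 9.09 around 6.81 in EtOH and 2.95 to 11.0 around 8.26 in EtOH-UA mice. For both genes 6 of 7 EtOH-UA mice were above the Ctrl median and mouse d was far below it, and the Ctrl group spanned almost the whole range. C1ql2 spanned 13.0 to 43.1 FPKM around a median of 32.6 in Ctrl, 22.9 to 34.9 around 25.5 in EtOH and 25.9 to 62.2 around 32.6 in EtOH-UA mice. All 7 EtOH-UA mice were above the EtOH median, and 3 EtOH mice were above the lowest EtOH-UA mouse, so that the groups overlapped here too.

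The spread between mice was itself a feature of these genes. Over the 12904 genes that averaged 1 FPKM or more, the median SD within groups was 0.16 on the log2 scale. Dsp had an SD of 0.68, which put it at percentile 98.8, Fibcd1 0.63 (98.5), Prox1 0.50 (97.7), Bok 0.41 (96.3) and C1ql2 0.41 (96.2). The other 5 members had SDs from 0.22 (Rgs14, percentile 74.1) to 0.30 (Mpped1, percentile 89.9), so that all 10 varied more than the median gene. EtOH-UA mouse b and Ctrl mouse b accounted for much of this in Fibcd1, whose SD was 0.23 (percentile 80.9) without them, and in C1ql2, at 0.24 (82.0). Prox1 and Dsp kept SDs of 0.41 (96.8) and 0.46 (97.6) without these mice. Dsp differed 9.24-fold between the lowest and the highest Ctrl mouse, 1.70-fold between EtOH mice and 3.73-fold between EtOH-UA mice, but the first value was 2.13-fold without Ctrl mouse b and the last 1.63-fold without EtOH-UA mice b and d.

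**Figure D3:**
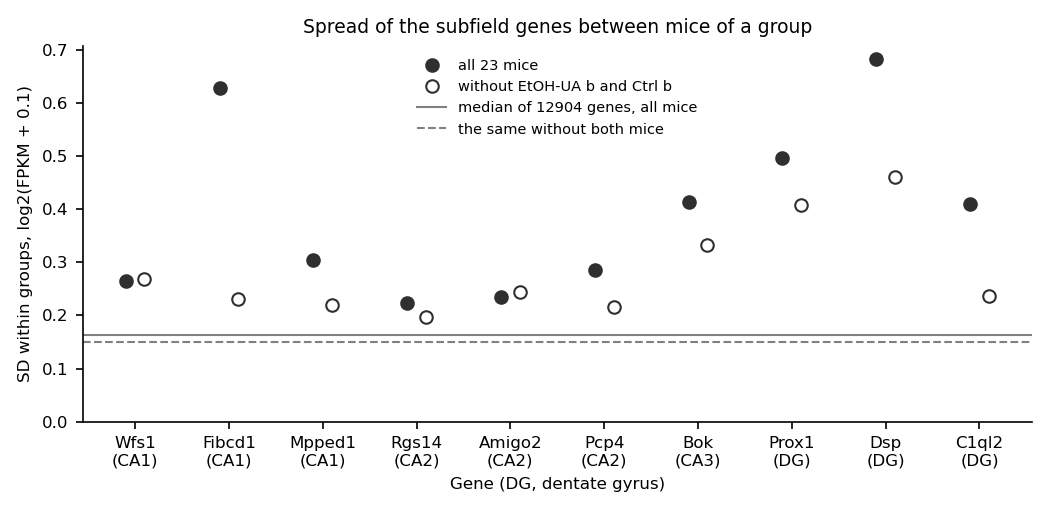
SD between mice of a group on the log2(FPKM + 0.1) scale (vertical axis) for each subfield gene, with filled points for all 23 mice and open points without EtOH-UA mouse b and Ctrl mouse b; lines give the median over 12904 genes. Every gene lies above the line, and Fibcd1 moves most between its points, from 0.63 to 0.23.

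The first comparison asked whether the ethanol diet went with a change in subfield genes. No member and no gene of the table passed limma's test at an adjusted p under 0.05 in EtOH against Ctrl mice (0 of 15985 genes, 0%). At an unadjusted p under 0.05 limma gave 487 genes (3.05%) and 0 of the 10 members, and 1 gene (0.00626%) and 0 members had groups that did not overlap. Of the members, 4 had a higher and 6 a lower mean log2 level in EtOH mice, and the median log2 fold change was -0.05, beside -0.0030 over all genes tested. With the score of a choroid plexus list, whose genes had higher means in EtOH mice, as a covariate, 7 were higher and 3 lower, as Fibcd1, Mpped1, Rgs14 and Pcp4 turned positive and Prox1 negative. The largest difference was that of Dsp (log2 fold change 0.34, SE 0.32, 95% interval -0.31 to 0.99, limma adjusted p = 0.999), followed by Prox1 (0.16, SE 0.23). Both rested on Ctrl mouse b: without it and EtOH-UA mouse b the values were 0.06 for Dsp and -0.0074 for Prox1. C1ql2 had -0.13 (SE 0.19, interval -0.52 to 0.27, limma adjusted p = 0.999), and -0.28 without these mice, where its unadjusted limma p of 0.0231 came to 0.999 after adjustment. Mpped1, with all 7 EtOH mice below the Ctrl median, had a log2 fold change of -0.12 (SE 0.14, two-sided exact permutation p = 0.323). The narrowest interval, that of Rgs14, ran from -0.29 to 0.14, or from 0.815-fold to 1.10-fold.

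The second comparison asked whether UA given with the ethanol diet went with a change. In EtOH-UA against EtOH mice limma again called 0 of 15985 genes (0%) and 0 members, with 523 genes (3.27%) and 0 members at an unadjusted p under 0.05, and 4 genes (0.025%) and 0 members with no overlap between groups. Of the members, 7 had a higher and 3 a lower mean log2 level in EtOH-UA mice, with a median log2 fold change of 0.08, beside 0.0033 over all genes tested. C1ql2 had the difference of largest size among the members, with means of 36.5 ± 12.2 FPKM in EtOH-UA mice and 27.4 ± 4.70 in EtOH mice (SD, n = 7 each). Its log2 fold change was 0.37 (SE 0.20, interval -0.05 to 0.79), with a two-sided exact permutation p of 0.0460 and a limma adjusted p of 0.900. Without EtOH-UA mouse b and Ctrl mouse b it was 0.23 and remained higher in EtOH-UA mice, at an unadjusted p above 0.05 by limma. Fibcd1 followed in size at -0.28 (SE 0.31), and Bok had 0.27 (SE 0.20), which was 0.09 without these mice. Fibcd1 and Mpped1, the latter at -0.02 (SE 0.15), turned to 0.12 and 0.13 without these mice, and Pcp4 went from 0.11 to -0.03.

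The third comparison set EtOH-UA against Ctrl mice, which differ in both the diet and UA, and it shares its mice with the others. Limma called 0 of 15985 genes (0%) and 0 members. At an unadjusted p under 0.05 it gave 492 genes (3.08%) and 1 of the 10 members, and 2 genes (0.0125%) and 0 members had groups with no overlap. Of the members, 7 were higher and 3 lower in EtOH-UA mice, with a median log2 fold change of 0.14, beside 0.0024 over all genes tested. The member under that unadjusted p was Wfs1, with means of 33.8 ± 3.14 FPKM in EtOH-UA mice (SD, n = 7) and 27.4 ± 5.40 in Ctrl mice (n = 9), a difference of 23.2%. Its log2 fold change was 0.32 (SE 0.12, interval 0.07 to 0.58), with a two-sided exact permutation p of 0.0194 and a limma adjusted p of 0.999 over all genes. It was between 0.27 and 0.37 when each mouse was left out in turn and 0.32 without EtOH-UA mouse b and Ctrl mouse b. Wfs1 thus kept its size where the other CA1 members did not: Fibcd1 had -0.39 (SE 0.29) and Mpped1 -0.14 (SE 0.14) with all mice, and 0.06 and 0.04 without these 2. The 3 dentate gyrus members had values of 0.26 (Prox1, SE 0.23), 0.38 (Dsp, SE 0.32) and 0.24 (C1ql2, SE 0.19). Without these 2 mice they were 0.09, 0.11 and -0.04, where EtOH-UA mouse d, low in Prox1 and Dsp, was kept. Leaving out each mouse in turn gave 0.10 to 0.44 for Prox1, 0.10 to 0.59 for Dsp and 0.10 to 0.32 for C1ql2. Over the 3 comparisons 30 exact tests were run on the members, of which 2 gave p-values under 0.05.

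**Figure D4:**
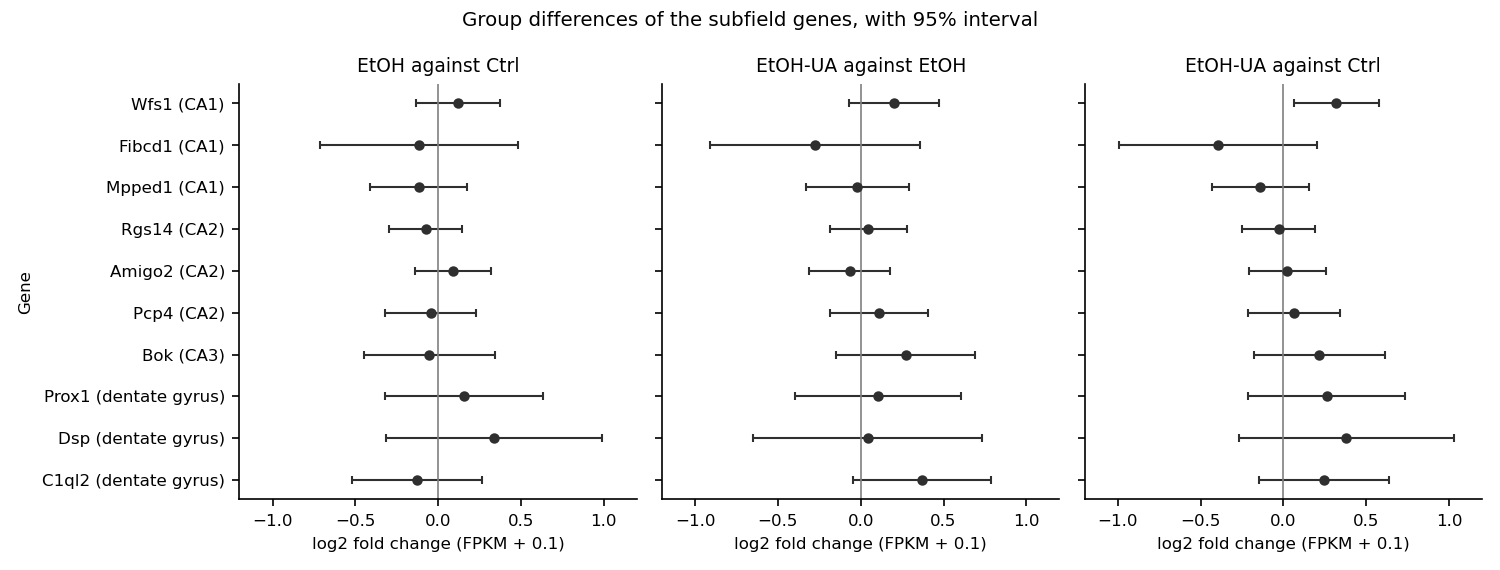
Log2 fold changes of the 10 subfield genes from limma on log2(FPKM + 0.1), with 95% intervals as horizontal bars, for the 3 comparisons. The interval of Wfs1 in EtOH-UA against Ctrl mice (0.07 to 0.58) lies above 0, and the other 29 intervals include 0.

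Further genes of the same fields were counted in the same tests. Of 6 other CA1 genes, 0 were called in any comparison, and Dkk3, a secreted Wnt pathway protein and the most abundant of them, had a log2 fold change of -0.13 in EtOH against Ctrl mice, where it was the 1 gene of these under an unadjusted limma p of 0.05 (adjusted p = 0.999). All 6 had a lower mean in EtOH mice, with a median of -0.13, beside -0.0030 over all genes tested. Without Ctrl mouse b 5 of 6 did so, with a median of -0.14. Genes of 1 list can follow the same few mice, so such counts of direction are not counts of separate results. The share of all genes in each direction is not given here. Of 10 other dentate gyrus genes, 0 were called, and 9 had a higher mean in EtOH-UA than in Ctrl mice. Their median was 0.25, beside 0.0024 over all genes tested. Without EtOH-UA mouse b and Ctrl mouse b, the latter the lowest of all mice in 9 of these genes, 8 were higher and the median was 0.089. EtOH-UA mouse d, with the lowest mean log2 deviation of its group over these genes (-0.51), was kept. With all mice, the calcium-permeable channel gene Trpc6 (0.29) was under an unadjusted limma p of 0.05 in this comparison, with an adjusted p of 0.999. Stxbp6, a SNARE-binding protein and the most abundant of this list, had 0.21. Of 8 tested other CA2 genes and 5 other CA3 genes, 0 were at an unadjusted p under 0.05 in any comparison. Their most abundant members were the calcium-binding protein gene Necab2 (log2 fold changes from -0.10 to 0.08 over the comparisons) and the kainate receptor subunit gene Grik4 (from -0.06 to -0.01).

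Between mice of a group, some members moved together, both within a field and across fields. Correlations used deviations from group means of log2(FPKM + 0.1) over 23 mice, with 100000 permutations and adjustment over 45 pairs. At an adjusted permutation p under 0.05 for Pearson's r, 3 of 9 pairs within a field passed, 2 of them also for Spearman's rho. Of 36 pairs from different fields 5 passed, 3 of them also for rho. The passing pairs within a field were Prox1 with Dsp, Dsp with C1ql2 and Fibcd1 with Mpped1, and no pair of CA2 members passed. The share of passing pairs among all genes is not given here, so these counts are no result about fields. Prox1 and Dsp had the highest correlation, with Pearson's r = 0.94 and Spearman's rho = 0.87 (permutation p = 1e-05 for both, the smallest that the permutations can give, adjusted p = 0.000225). It was 0.84 without Ctrl mouse b and EtOH-UA mouse d, the 2 mice farthest from the Prox1 median, and within the groups it was 0.97 for Ctrl, 0.45 for EtOH and 0.98 for EtOH-UA. C1ql2 followed less closely. With Dsp it had r = 0.73 and rho = 0.62 (permutation p = 0.00275 and 0.00208, adjusted p = 0.0248 and 0.0156), but 0.36 without the same 2 mice. With Prox1 it had r = 0.61 and rho = 0.53 (permutation p = 0.0128 and 0.0139, adjusted p = 0.064 and 0.0782) and 0.21 without them. Both relations of C1ql2 were thus weaker without those mice. Within Ctrl, EtOH and EtOH-UA mice r of C1ql2 was 0.92, 0.63 and 0.33 with Dsp and 0.83, -0.02 and 0.36 with Prox1.

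The CA1 members did not form 1 group. Fibcd1 and Mpped1 had r = 0.80 and rho = 0.50 (permutation p = 0.00068 and 0.0085, adjusted p = 0.0102 and 0.0546). Without EtOH-UA mouse b and EtOH mouse g, the 2 farthest in Fibcd1, r was 0.45, so that the relation rested in part on them. Wfs1 had r = -0.18 with Fibcd1 and r = -0.02 with Mpped1 (rho = -0.16 and 0.01, permutation p = 0.194 and 0.936, adjusted p = 0.436 and 0.98). These pooled values hid differences between groups. Within Ctrl, EtOH and EtOH-UA mice r was 0.28, -0.15 and -0.76 with Fibcd1 and 0.16, 0.44 and -0.75 with Mpped1. Fibcd1 was correlated with the CA2 member Rgs14, with r = 0.74 and rho = 0.82 (permutation p = 1e-05 for both, adjusted p = 0.000225) and 0.88 without the same 2 mice. Within groups this r was 0.86 for Ctrl, 0.96 for EtOH and 0.93 for EtOH-UA. Rgs14 had lower correlations with the other CA2 members, with r = 0.22 and rho = 0.29 for Amigo2 (permutation p = 0.326 and 0.201, adjusted p = 0.54 and 0.45) and r = -0.09 and rho = 0.13 for Pcp4 (0.698 and 0.549, adjusted p = 0.849 and 0.699). Without EtOH-UA mouse b and EtOH mouse g these r were 0.52 and 0.33, so that the sign for Pcp4 rested on those mice.

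**Figure D5:**
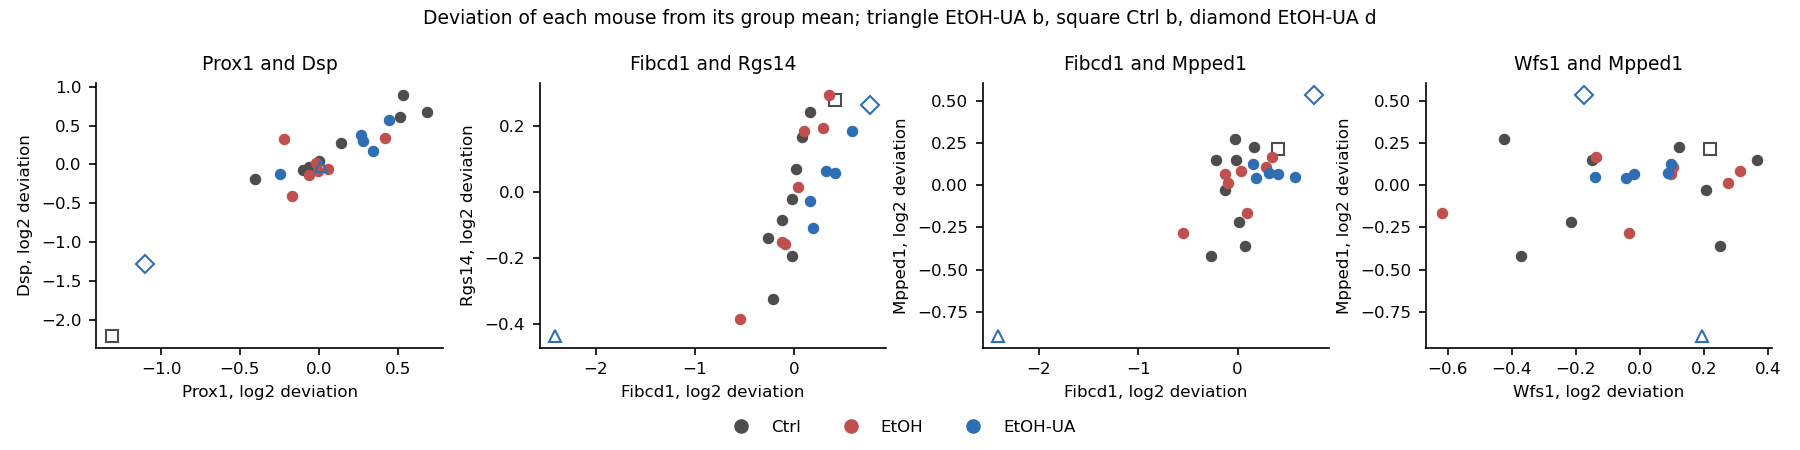
Deviations of each mouse from its group mean in log2(FPKM + 0.1) for 4 pairs of genes, with colours for the 3 groups and open symbols for EtOH-UA mouse b (triangle), Ctrl mouse b (square) and EtOH-UA mouse d (diamond). Prox1 and Dsp follow 1 line (r = 0.94), and Fibcd1 and Rgs14 do so apart from EtOH-UA mouse b (r = 0.88 without it and EtOH mouse g). Wfs1 and Mpped1 have r = -0.02 over all mice, with 0.44 within EtOH and -0.75 within EtOH-UA mice.

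Of the 45 pairs, 8 had an adjusted p under 0.05 for r and 5 of these also for rho. Beside those given above these were Bok with C1ql2 (r = 0.58, rho = 0.62, permutation p = 0.00096 and 0.00201, adjusted p = 0.0108 and 0.0156, r = 0.54 without the 2 farthest mice) and Bok with Amigo2 (r = 0.53, rho = 0.65, permutation p = 0.00876 and 0.00141, adjusted p = 0.0493 and 0.0156, r = 0.51). Bok with Pcp4 (r = 0.65, rho = 0.44, permutation p = 0.0065 and 0.0429, adjusted p = 0.0418 and 0.171) came to 0.36 without EtOH-UA mouse b and Ctrl mouse a. Mpped1 with C1ql2 was the pair with a negative sign (r = -0.60, rho = -0.44, permutation p = 0.00619 and 0.0458, adjusted p = 0.0418 and 0.171) and came to -0.40 without EtOH-UA mice b and d. All 9 pairs of a CA1 and a dentate gyrus member had a negative r, with a median of -0.24, and 1 of them passed for r. Mpped1 with Prox1 passed for rho (r = -0.56, rho = -0.68, permutation p = 0.0254 and 0.00177, adjusted p = 0.104 and 0.0156), with r = -0.72 without EtOH-UA mice b and d and -0.78 within Ctrl, -0.77 within EtOH and -0.37 within EtOH-UA mice. The mean log2 deviation of the dentate gyrus members minus that of the CA1 members put this balance per mouse. It spanned -2.01 to 0.70 around a median of -0.03 in Ctrl, -0.32 to 0.57 around -0.16 in EtOH and -1.07 to 1.51 around 0.23 in EtOH-UA mice, and these ranges overlapped. The limits rested on single mice: -2.01 was Ctrl mouse b, -1.07 EtOH-UA mouse d and 1.51 EtOH-UA mouse b, and without these 3 the balance spanned -0.48 to 0.70 in Ctrl and -0.13 to 0.43 in EtOH-UA mice.

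Each member was also set against the mean log2 level of the other genes of its field, a family of 10 relations added after the values had been seen. The 3 dentate gyrus members passed, with r = 0.91 and rho = 0.79 for Prox1 (adjusted p = 0.0001 and 0.0003 from permutations), 0.92 and 0.81 for Dsp (0.0001 and 0.00025) and 0.82 and 0.78 for C1ql2 (0.0001 and 0.0002). They remained at 0.72, 0.77 and 0.65 without the 2 farthest mice. Within EtOH mice r was 0.20 for Prox1, 0.75 for Dsp and 0.77 for C1ql2. The values were 0.98, 0.98 and 0.90 within Ctrl mice and 0.90, 0.87 and 0.69 within EtOH-UA mice. Fibcd1 (r = 0.86, rho = 0.58, adjusted permutation p = 0.0174 and 0.0398) and Mpped1 (0.83 and 0.54, adjusted permutation p = 0.000825 and 0.00955) also passed, at 0.31 and 0.60 without the 2 farthest mice, so that the value of Fibcd1 rested on EtOH-UA mouse b and EtOH mouse g. Wfs1 had r = 0.01 and rho = -0.06 with the other CA1 genes (adjusted permutation p = 0.942 and 0.748). Within Ctrl, EtOH and EtOH-UA mice its r was -0.07, 0.77 and -0.56. For Rgs14, Amigo2 and Pcp4 r was 0.40, 0.26 and -0.40 and rho 0.35, 0.12 and -0.23 with the other CA2 genes. For Bok r was 0.37 and rho 0.23 with the other CA3 genes. Adjusted permutation p-values for r of these members were from 0.0977 to 0.296. Without the 2 farthest mice r was 0.29, 0.33, -0.32 and 0.22 in this order. Without EtOH-UA mouse b and Ctrl mouse b r of Bok was -0.04, while the CA2 members kept their pooled sign. The sign differed between groups for 2 of them. Within Ctrl, EtOH and EtOH-UA mice r was 0.92, -0.31 and -0.71 for Amigo2 and -0.38, 0.61 and -0.77 for Pcp4. For Rgs14 it was 0.51, 0.36 and 0.34, and for Bok 0.44, 0.44 and 0.39.

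Levels of a choroid plexus list of 7 genes moved with some members. Its summed level spanned 8.19 to 2971 FPKM in the Ctrl, 66.7 to 5750 in the EtOH and 16.6 to 7809 in the EtOH-UA group, all 7 genes had a higher mean log2 level in EtOH than in Ctrl mice, and no gene of the list was at 0 in any mouse. Mpped1 was lower where this list was higher (r = -0.69, rho = -0.73, adjusted permutation p = 0.0029 and 0.0046), with -0.64 without the 2 farthest mice and between -0.73 and -0.68 within the groups. Fibcd1 (r = -0.51, rho = -0.52, adjusted permutation p = 0.0157 and 0.0267) and Rgs14 (r = -0.52, rho = -0.48, adjusted permutation p = 0.0463 and 0.077) had the same sign. Of the 10 members 6 had a positive r with this list, led by Amigo2 (0.46), Prox1 (0.46) and Dsp (0.41). Adjusted permutation p-values for r of these 3 were 0.0882, 0.0996 and 0.121. Pcp4 (r = 0.88, rho = 0.80, adjusted permutation p = 0.0002 and 0.0004) and Bok (r = 0.79, rho = 0.68, adjusted permutation p = 0.00355 and 0.0101) were higher where summed FPKM was higher. For Pcp4 r was 0.75 without EtOH-UA mouse b and Ctrl mouse a. For Bok it was 0.47 without EtOH-UA mice b and d, the 2 with the highest summed FPKM, and -0.044 within Ctrl mice, 0.81 within EtOH and 0.96 within EtOH-UA mice. Each of these is a family of 10 relations added after the values had been seen. The share of all genes with such relations is not given here. With the choroid plexus score as a covariate, no member was called in any comparison, and Mpped1 in EtOH against Ctrl mice went from -0.12 to 0.06.

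For 1 member of each field, the genes most like it were sought among 12903 genes over the 23 mice, as a description with no test. Prox1 was followed by Sema5a (r = 0.98), Plekha2 (0.96) and Glis3 (0.95), and these values were 0.98, 0.94 and 0.93 without EtOH-UA mouse b and Ctrl mouse b. Bok was followed by Cpne6 (0.94), Homer3 (0.93) and Rasl11a (0.93), and genes like Rgs14 included Cotl1 (0.91) and Chst1 (0.87). The nearest genes to Wfs1 were less like it, with Gm19410 (0.78), S100a8 (0.72) and Lrrfip2 (0.69).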

How the data were processed

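Hippocampal RNA of 23 mice was sequenced by the authors, 1 library per mouse. The authors deposited 1 table of FPKM per gene and mouse. The submitters' processing notes name HISAT2 2.1.0, Bowtie2 2.2.5, RSEM 1.2.8, StringTie and DESeq, with no role for each, and the study's methods give mouse build mm10 and poly(A) selection, where the labels say total RNA. FPKM are no counts, so the authors' count test was not repeated. FPKM were tested as log2(FPKM + 0.1), on which fold changes of low genes are understated, with limma 3.58.1 in R 4.3.3 over all 3 groups, after a filter of a mean of 0.1 FPKM, with Benjamini-Hochberg adjustment over 15985 genes and a threshold of 0.05. Members were also tested by two-sided exact permutation on log2 values. Correlations, permutations and intervals used numpy 2.4.6, scipy 1.17.1 and pandas 2.3.3. The columns show each mouse's group and a mouse number, but not the replicate number of the labels. Depth was estimated from the steps between low FPKM values, since no counts were used.

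The members and lists were chosen with earlier results of these data known. The 10 members were named throughout, as were the most abundant gene of each further list, genes of these lists under an unadjusted p of 0.05, and the 3 genes most like Wfs1, Rgs14, Bok and Prox1 among genes that averaged 1 FPKM or more, and some genes that this rule names are not reported here. Scripts were tested on simulated data. The alternatives were other pseudocounts, filters, normalizations, weights, a choroid plexus covariate and leaving out each mouse. Leaving out EtOH-UA mouse b with Ctrl mouse b, and the relations with other genes of a field, summed FPKM and the choroid plexus score, were added after seeing the data.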

Additional observations from a re-analysis of the deposited data

Results flagged for a closer look

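The gap from the lowest or highest mouse of a group to the nearest mouse was divided by the range of the group. Both were taken on log2 values and not on FPKM, and the flagged mice hold for that scale. A mouse was singled out where this share exceeded 0.568 for 7 mice or 0.493 for 9. Of 42 sets of values tested, 9 did so, where chance gives about 2.1 (1 in 20) for independent sets of normal values. These sets were not independent, since members and the score of their field were taken in the same mice. The 9 are therefore not 9 separate events.

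EtOH-UA mouse b was far below its group in Fibcd1 (gap 0.808 of the range) and Mpped1 (0.655), and in the score over the other CA1 genes (0.691). Ctrl mouse b was far below its group in Dsp (0.653) and C1ql2 (0.523), and in the score over the other dentate gyrus genes (0.513). EtOH-UA mouse d was far below its group in Dsp (0.625). EtOH-UA mouse e was lowest in Amigo2 (0.572), and EtOH mouse g was highest in Prox1 (0.569), both just above the limit.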

How the results depend on the processing

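No paired analysis was possible because the columns carry mouse numbers and not the replicate numbers of the labels. The paper assigned mice to groups at random, and the labels do not say that equal replicate numbers mark pairs. No member was called under any alternative, and limma called 0 genes in each comparison except 1 (Cd24a, adjusted p = 0.0289) in EtOH against Ctrl mice with array quality weights. Leaving out each mouse in turn gave 0 to 1 genes called in each comparison: LOC115488002 without Ctrl mouse i (adjusted p = 0.0275), and LOC101055676 without EtOH-UA mouse f or g. The signs of small differences depended on the setting, and the cause was not tested. For EtOH against Ctrl, a choroid plexus covariate gave log2 fold changes of 0.14 for Fibcd1, 0.056 for Mpped1, 0.020 for Rgs14, 0.00148 for Pcp4 and -0.030 for Prox1, and the removal of EtOH-UA mouse b and Ctrl mouse b gave -0.0074 for Prox1. For EtOH-UA against EtOH, array weights gave 0.00641 for Fibcd1, 0.038 for Mpped1 and -0.045 for Pcp4, and the removal of both mice 0.12, 0.13 and -0.025. For EtOH-UA against Ctrl, array weights gave 0.010 for Rgs14, -0.050 for Amigo2, -0.11 for Pcp4 and -0.0083 for Bok, the covariate 0.036 for Rgs14 and -0.037 for Amigo2, and the removal of both mice 0.057 for Fibcd1, 0.038 for Mpped1, 0.078 for Rgs14, -0.088 for Pcp4 and -0.042 for C1ql2.

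With single mice left out, the range in EtOH against Ctrl was -0.14 to 0.048 for Bok and -0.0074 to 0.24 for Prox1. In EtOH-UA against EtOH it was -0.40 to 0.12 for Fibcd1, -0.11 to 0.13 for Mpped1, -0.018 to 0.12 for Rgs14, -0.11 to 0.0068 for Amigo2, -0.025 to 0.19 for Pcp4 and -0.054 to 0.26 for Dsp. In EtOH-UA against Ctrl it was -0.52 to 0.0066 for Fibcd1, -0.23 to 0.011 for Mpped1, -0.073 to 0.043 for Rgs14, -0.025 to 0.10 for Amigo2 and -0.071 to 0.14 for Pcp4.

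The number of correlated pairs was between 4 and 9 with single mice left out, against 8 with all mice, and was 4 without EtOH-UA mouse d or Ctrl mouse b. Dsp with C1ql2 ranged from 0.43 (adjusted permutation p = 0.296, without Ctrl mouse b) to 0.84. Pairs with r near 0 changed sign. Wfs1 with Mpped1 was 0.073 after quantile normalization, 0.015 by Spearman's rho, 0.12 without both mice and -0.14 to 0.16 with single mice left out. Within Ctrl, EtOH and EtOH-UA mice it was 0.16, 0.44 and -0.75. Rgs14 with Pcp4 was 0.13 by rho, 0.33 without the 2 farthest mice, 0.45 without both mice and -0.17 to 0.37 with single mice left out. Within the groups, in the same order, it was 0.15, 0.75 and -0.63. Amigo2 with Pcp4 was 0.043 without the 2 farthest mice and -0.24 to 0.039 with single mice left out. Its values within the groups were -0.53, -0.092 and 0.34. Wfs1 with Fibcd1 was 0.28, -0.15 and -0.76 within the groups, and Prox1 with C1ql2 0.83, -0.017 and 0.36. With 7 to 9 mice a group, half-widths of the 95% intervals were 0.22 to 0.69 on the log2 scale, and smaller differences could not be resolved.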

Other observations

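The other 19 lists held 106 genes, of which 105 were tested, and limma called 0 of them in each comparison. In EtOH against Ctrl mice 6 (5.71%) were at an unadjusted p under 0.05, beside 3.05% of all genes tested. Of these 4 were higher, all of them ependymal genes: the ciliogenesis factor gene Foxj1 (log2 fold change 0.73), Ccdc153 (1.38), Tmem212 (1.32) and Rarres2 (0.40). Lower there were Dkk3 (-0.13) and the adenosine receptor gene Adora2a (-0.40). In EtOH-UA against EtOH mice 0 genes were under that p, beside 3.27% of all genes. In EtOH-UA against Ctrl mice 10 (9.52%) were, beside 3.08% of all genes, all higher, among them 4 of 5 blood genes, Hba-a2 (0.89), Hbb-bs (0.66), Hbb-bt (0.85) and Alas2 (0.62). Others were Trpc6 (0.29), Tcf7l2 (0.27), Ppp1r1b (0.25), the astrocyte filament gene Gfap (0.23) and Rarres2 (0.32). All adjusted p-values from limma were 0.999, and the blood genes were highest of all mice in EtOH-UA mouse b.

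The choroid plexus list had a median log2 fold change of 1.57 in EtOH against Ctrl mice and 1.10 in EtOH-UA against Ctrl mice, with 0 of 7 genes under an unadjusted limma p of 0.05 in any comparison. Its most abundant gene, the thyroxine carrier Ttr, averaged 1560 FPKM over all mice. The most abundant genes of the remaining lists were Ociad2 (51.6 FPKM) for mossy cells, Dcn (29.7) for ventral hippocampus, Fn1 (8.83) for subiculum, Prkcd (8.27) for thalamus and habenula, Ppp1r1b (26.8) for striatum and septum, Lamp5 (17.9) for neocortex, Snap25 (1102) for neurons in general and Gad1 (102) for inhibitory neurons. For glia and vessels they were Slc1a2 (326 FPKM) for astrocytes, Mbp (938) for oligodendrocytes, Csf1r (21.1) for microglia, Cldn5 (15.0) for endothelium, Rarres2 (6.39) for ependyma and Hbb-bs (54.1) for blood.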
